A study of Mus musculus with 28 samples.

Results

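The members described here are 9880 promoter DNase I hypersensitive sites (DHSs) that were open in all 4 DNase-seq conditions of the study, out of 50176 merged regions in the whole series. They were chosen by position: the 4 deposited peak lists were merged wherever peaks overlapped by at least 1 bp, a merged region had to hold a peak of every list, and its edge had to lie within 1000 bp of the start of a protein-coding transcript in the GENCODE vM1 annotation of mm9. Of the 50176 regions, 21699 held a peak of all 4 lists, and the other 11819 of these lay away from any start and are called distal below. A further 3671 promoter regions were found in only 1 to 3 lists. Because presence in the lists chose the members, their fold enrichment and their ranks are given as a description, with no test.

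The study asked how TGF-β and IL-4 drive naive CD4+ T cells towards Th9 cells, the helper T cells that make IL-9. Cells sorted as CD4+ CD62L+ from spleen and lymph nodes of mice aged 8 to 10 weeks, on a C57BL/6 background, were stimulated with anti-CD3 and anti-CD28. They were kept in medium (control) or given TGF-β1 at 2 ng/ml with IL-4 at 10 ng/ml, a culture named cytokine below, and for RNA-seq also either of these alone. There were 4 DNase-seq libraries, 1 per condition, and 24 RNA-seq libraries, with 3 in each of the 8 groups. Every mouse carried the floxed Tgfbr1 f/f allele and Ert2-cre+, a Cre that tamoxifen switches on in any cell type. WT mice received oil, whereas KO mice received 1 mg tamoxifen a day for 5 days, so loss of Tgfbr1 and exposure to tamoxifen cannot be told apart. The 4 DNase-seq libraries all carry replicate number 3, so no difference between them has a replicate check. How deeply these libraries were sequenced is unknown, since the lists give no read counts.

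DNase I cuts DNA most readily where nucleosomes are absent, and most active promoters carry such an open stretch just upstream of the transcript start. Many mammalian promoters lie in CpG islands, are open in nearly every cell type and serve genes for basic cell functions, whereas enhancers far from starts differ more between cell types. Short motifs such as the CCAAT box (bound by NF-Y), the GC box (bound by Sp and Klf factors) and the ETS and NRF1 motifs are common in CpG island promoters.

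The sequences of 8 member promoters are shown as examples. Each line gives up to 200 bases of mm9 around the DHS summit, 5′ to 3′ on the strand of the gene, with any annotated exon left out. Capitals mark exact matches on either strand to the CCAAT box (CCAAT, or ATTGG on the other strand), the GC box (GGGCGG or CCGCCC), the TATA box (TATAAA) and the CREB and ATF motif (TGACGTCA). Golph3l, Copz1 and Tmem184c are shown because they are among the 10 members of highest rank and hold CCAAT boxes. These 3 have the lowest GC content of the 10, at 50.0%, 53.7% and 51.0% in 300 bp, against 63.7% to 68% in the others, so they do not stand for all 10. Stat3, Etv5, Maf, Tgfbr1 and Tnf are shown because they belong to the lists of helper T cell and cytokine signalling genes described below.
Golph3l (chr3:95392600-95392799, plus strand): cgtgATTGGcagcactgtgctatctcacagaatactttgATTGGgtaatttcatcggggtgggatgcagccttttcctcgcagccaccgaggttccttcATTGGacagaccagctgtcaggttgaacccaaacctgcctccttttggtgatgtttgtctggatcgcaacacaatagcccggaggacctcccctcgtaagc
Copz1 (chr15:103103041-103103240, plus strand): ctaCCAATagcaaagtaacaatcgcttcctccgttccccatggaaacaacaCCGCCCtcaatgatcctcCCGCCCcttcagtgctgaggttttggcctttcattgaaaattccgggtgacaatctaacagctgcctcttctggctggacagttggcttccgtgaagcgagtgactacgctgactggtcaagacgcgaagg
Tmem184c (chr8:80134598-80134758, minus strand): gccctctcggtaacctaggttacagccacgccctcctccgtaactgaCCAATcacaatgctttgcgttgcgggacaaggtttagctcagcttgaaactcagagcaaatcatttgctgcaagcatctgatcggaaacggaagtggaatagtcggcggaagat
Stat3 (chr11:100800855-100800995, minus strand): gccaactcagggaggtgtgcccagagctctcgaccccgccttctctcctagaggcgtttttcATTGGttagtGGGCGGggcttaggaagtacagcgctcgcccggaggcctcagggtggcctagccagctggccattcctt
Etv5 (chr16:22439793-22439970, minus strand): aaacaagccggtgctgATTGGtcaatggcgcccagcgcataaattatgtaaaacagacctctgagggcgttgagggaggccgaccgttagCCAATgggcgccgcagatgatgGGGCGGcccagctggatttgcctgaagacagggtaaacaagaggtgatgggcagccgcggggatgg
Tgfbr1 (chr4:47365841-47366040, plus strand): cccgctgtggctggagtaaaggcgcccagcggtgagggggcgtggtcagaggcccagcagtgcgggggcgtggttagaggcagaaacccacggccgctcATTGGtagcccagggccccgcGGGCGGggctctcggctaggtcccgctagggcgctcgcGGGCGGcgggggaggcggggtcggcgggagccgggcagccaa
Maf (chr8:118231708-118231907, minus strand): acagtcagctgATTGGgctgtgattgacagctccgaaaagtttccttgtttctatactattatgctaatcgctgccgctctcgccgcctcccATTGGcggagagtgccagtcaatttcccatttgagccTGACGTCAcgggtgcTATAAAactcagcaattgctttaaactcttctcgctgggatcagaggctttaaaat
Tnf (chr17:35338953-35339086, minus strand): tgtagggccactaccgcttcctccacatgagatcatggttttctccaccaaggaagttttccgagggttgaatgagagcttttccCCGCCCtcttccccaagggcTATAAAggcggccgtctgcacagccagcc
Golph3l held 3 CCAAT boxes in this stretch, Etv5 and Maf held 2 each, and Copz1, Tmem184c, Stat3 and Tgfbr1 held 1. Tnf, the member of lowest rank among these 8, held no CCAAT box there but 1 GC box and 1 TATA box, the latter centred 26 bp before the start. Such a match is a run of letters, and binding was not measured.

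Before the values, 2 checks of the labels are given. Tgfbr1, the targeted gene, had between 3.02 and 20.7 RPKM (reads per kilobase of gene, scaled by mapped reads) in the 12 WT columns, with a median of 8.91, and between 2.32 and 5.18 RPKM in the 12 KO columns, with a median of 3.11. KO was thus lower in the median, but the ranges overlapped, and the table counts reads over the whole gene, so the deleted exon cannot be seen by itself. Published read counts for 8 of the WT libraries were compared with every RPKM column by which genes stood at 0. Only 2 of the 8 libraries matched the column headed with their name, and 6 matched a WT column headed with another culture or mouse, with at least 99.8% of genes alike in the best column and at most 85.8% in the next. All 8 stayed within WT. The 3 columns headed WT control matched 3 different cultures of replicate 1, and the 3 headed with both cytokines matched 3 different cultures of replicate 3, so neither set holds 3 replicates of a culture. The columns headed with WT replicate 1 matched libraries of more than 1 mouse. The headings of the KO columns could not be checked in this way. Gene levels below are therefore medians over all 24 columns, which do not depend on the headings, and comparisons of cultures are given only as the columns are headed.

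Marker genes matched the label of CD4+ T cells. All 10 CD4 T cell markers were detected, with a summed level of 2129 to 2704 RPKM over the WT columns and 2034 to 2676 RPKM over the KO columns, and the most abundant was Lat at a median of 526 RPKM. The 7 B cell markers summed to at most 36.0 RPKM (Cd79b highest), the 7 myeloid markers to at most 21.002 RPKM (Lyz2) and the 2 CD8 T cell markers to at most 36.3 RPKM (Cd8b1). None of the B cell and myeloid markers had a member promoter. The 4 NK cell markers summed to at most 7.78 RPKM (Ncr1), and the 4 erythroid markers to at most 22.03 RPKM in WT and 0.314 RPKM in KO. Over all columns Hba-a1 and Hbb-b1 had a median of 0 and Alas2 0.0833 RPKM. Of 6 markers of tissues other than blood, Alb, Krt5, Krt8, Myh6 and Gfap had a median of 0 and Col1a1 0.0243 RPKM. Col1a1 had a member promoter all the same. In RNA from whole cultures, fewer cells of a type and less RNA per cell cannot be told apart.

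Openness in all 4 lists went with a position at a promoter. Of the regions found in all 4 lists, 45.5% lay at a promoter, against 11.8% of those in 1 list, 13.5% of those in 2 and 14.5% of those in 3. The lists differed in length, from 44298 peaks in WT control through 33880 in WT cytokine and 33665 in KO control to 27145 in KO cytokine. Of the 1015 promoter regions found in exactly 3 lists, 672 (66.2%) were missing from the shortest list, KO cytokine, and 42 (4.14%) from the longest, WT control. A promoter that missed membership by 1 list was thus most often missing from the shortest list. Across the distance threshold, the last members inside were the regions of Wdr70 and Hivep2, each 999 bp from the start, and Atg2b at 998 bp. The first regions outside lay 1003 bp from Zfp395, 1006 bp from Pnpla6 and 1007 bp from Aff1. Most members were far from that threshold, since 8627 of them (87.3%) contained the start itself.

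Within each list the members stood near the top. Fold enrichment is the ratio of reads at the summit to the local background as the peak caller gave it, and the members' median was 9.16 in WT control, 8.10 in WT cytokine, 7.02 in KO control and 6.60 in KO cytokine. As a percentile among all peaks of the same list, with 100 the strongest, the members' medians were 83.4, 81.0, 81.1 and 76.3 in the same order. Distal regions open in all 4 lists had median percentiles of 67.2, 56.8, 56.6 and 47.6. Promoter regions present in only 1 to 3 lists had 18.3, 15.9, 15.4 and 12.9. A weak peak is more easily missed in 1 of the lists, so part of the gap to promoters of 1 to 3 lists follows from the rule. The plot of ranks by list shows the 3 classes. Of the strongest 10% of peaks, 76.7% lay in members in WT control, 87.0% in WT cytokine, 88.2% in KO control and 87.7% in KO cytokine, although members took only 23%, 30.1%, 30.2% and 37.8% of all peaks.

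**Figure D1:**
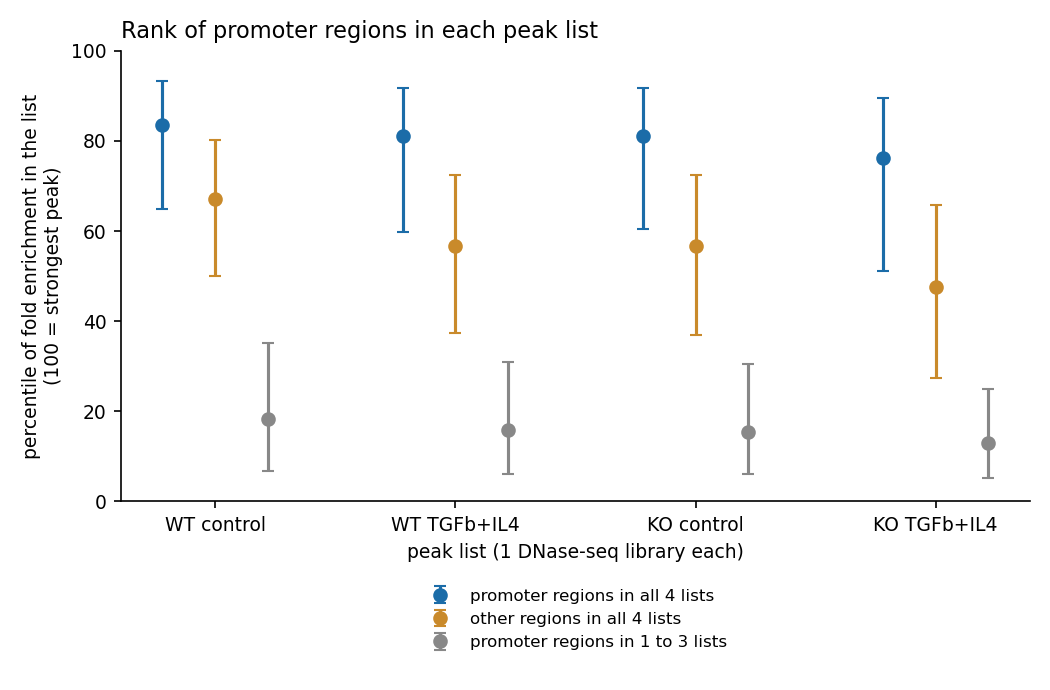
Percentile of fold enrichment within each of the 4 peak lists (100 is the strongest peak), for promoter regions in all 4 lists, other regions in all 4 lists and promoter regions in 1 to 3 lists. Points are medians over regions and bars span the quartiles; the members' medians lie between 76.3 and 83.4 in every list.

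The rank of a member was much the same in all 4 lists. Across the 9880 members, Spearman's correlation of percentiles between lists lay between 0.884 (WT control with KO cytokine) and 0.918 (WT cytokine with KO control), a description across regions that share 4 libraries. Across the 11819 distal regions it lay between 0.615 and 0.680. The median gap between a member's highest and lowest percentile was 12.5 points, against 29.1 points for distal regions. In all, 1797 members (18.2%) were in the strongest 10% of every list, against 169 distal regions (1.43%), and 927 members were below the median of every list. Members stand closer to the top of the scale, which by itself narrows their gaps and raises the share in the strongest 10%, so these values do not show that promoters are the steadier class.

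Shifts of at least 25 percentile points between lists were counted as a size rule without a test. With TGF-β + IL-4 against control in WT, 160 members ranked higher and 540 lower, where the share of all 21699 regions open in 4 lists was 2.72% higher and 13.1% lower. The same contrast in KO gave 142 members higher and 736 lower, against 3.41% and 12.6% of all regions. For KO against WT, 134 members ranked higher and 495 lower under control (2.28% and 12.5% of all regions), and 179 higher and 778 lower under cytokine (4.05% and 14.1%). In every contrast the second list named was the longer, and a percentile depends on how many weak peaks a list holds. When percentiles were taken among the 21699 regions present in all 4 lists, more members ranked higher than lower in the WT cytokine contrast (513 and 274) and in KO against WT under control (523 and 254), so no direction is read from these counts. Over the 4 contrasts, 1997 members (20.2%) shifted at least once and 7883 (79.8%) never did, against 6388 distal regions (54%) with a shift.

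Among the members with the widest gap between lists, Ddx3y on the Y chromosome fell from a percentile of 97.0 in WT control through 78.8 in WT cytokine and 59.0 in KO control to 4.91 in KO cytokine. Gps2, which encodes a subunit of a corepressor complex, had 82.4, 60.0, 65.6 and 7.43 in the same order. Itpr2, which encodes a calcium channel of the endoplasmic reticulum, showed another pattern and ranked high with cytokines in WT at 76.2, against 4.88 in WT control, 2.99 in KO control and 39.2 in KO cytokine. Zmynd8, a chromatin reader gene, ranked at 66.7 and 72.7 in the WT lists and at 0.979 and 14.5 in the KO lists. Acss1, for an acetyl-CoA synthetase, ranked at 56.2 and 81.0 in the WT lists and at 20.9 and 9.13 in the KO lists. Cysltr2, a leukotriene receptor gene, stood low in KO control alone, at 2.33 against 59.8, 68.0 and 73.8 in WT control, WT cytokine and KO cytokine. Chm, Metap1, Hist1h3f and Chic2 complete the 10 widest gaps, with at least 71.5 points. Whether any of these shifts would recur in a second library was not tested. Ddx3y had at most 0.027 RPKM in any RNA-seq column, while its region had a fold enrichment of 13.2 in WT control and 3.25 in KO cytokine. The labels give no sex, so its shift is not read as one of culture or genotype.

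The 10 members of highest mean rank were Golph3l, Mfsd8, Cenpf, 3110057O12Rik, Mbd1, Cbwd1, Tmem184c, BC016423, Kifap3 and Copz1, with mean percentiles of 99.8 to 99.9. Golph3l, which encodes a Golgi protein, had a fold enrichment of 18.03 in WT control, 15.9 in WT cytokine, 13.3 in KO control and 14.9 in KO cytokine. Its 300 bp around the summit held 7 CCAAT boxes, on a GC content of 50.0%. Cenpf, for a centromere protein of dividing cells, had fold enrichments of 18.5, 16.7, 12.9 and 13.7 in the same order and 2 CCAAT boxes. Copz1, for a coat protein of Golgi vesicles, had 17.8, 15.9, 12.3 and 13.6 and 3 CCAAT boxes. Mfsd8, 3110057O12Rik, Cbwd1 and Kifap3 ranked beside them with 0 CCAAT boxes in their windows, Tmem184c and Mbd1 held 1 and BC016423 held 2. The strongest openness did not mark the most abundant transcripts. Copz1 had a median of 130.3 RPKM, whereas Mbd1 had 10.7, Cbwd1 10.0, Tmem184c 8.88 and Golph3l 7.43 RPKM. Lower still were Cenpf at 3.77, Mfsd8 at 1.80, Kifap3 at 1.55 and 3110057O12Rik at 1.11 RPKM, and BC016423 had no value.

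At the other end, the 10 members of lowest mean rank included 3 regions of the mitochondrial genome, named after mt-Nd6, mt-Nd1 and mt-Co1, which are not promoters of nuclear genes in the sense used here. They also included Sfi1, Gm11168, Ifi47, Mbp, Sin3a and Nfic. Ifi47, an interferon-induced GTPase gene, had 282 RPKM at percentiles of 0.324, 0.891, 0.976 and 2.53 in the 4 lists. A low rank therefore did not mark a silent gene.

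The members had the composition and placement of CpG island promoters. In 300 bp around the summit the median GC content was 63.0%, against 50.0% in distal regions open in all 4 lists and 56.3% in promoter regions of 1 to 3 lists. The median ratio of observed to expected CpG was 0.811 in members, 0.292 in the distal regions and 0.552 in the promoters of 1 to 3 lists. At least 0.6 was reached by 80.5% of members, 11.0% of distal regions and 43.9% of promoters of 1 to 3 lists. The members were also the wider regions, with a median of 612 bp against 434 bp and 305 bp, where a merged region widens with the number of peaks in it. The summit lay a median of 52 bp upstream of the nearest start, with quartiles of 118 bp and 1 bp upstream, and 75.3% of summits were upstream. The point of strongest cutting was thus just before the start.

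Of 19 motifs searched by exact letters on both strands, the GC box was the most frequent in members. It was found within 300 bp around the summit of 68.5% of members, against 16.5% of distal regions open in all 4 lists, 41.1% of promoter regions in 1 to 3 lists and 45.3% of all 45974 protein-coding starts. The CCAAT box was in 40.6% of members, 28.1% of distal regions, 26.7% of promoters in 1 to 3 lists and 33.2% of all starts. In promoters with no DHS in any list it was 35.3%. The windows of all starts and of promoters with no DHS are centred on the start and those of regions on the summit, and how much of a gap comes from this placement was not tested. At least 2 boxes were in 16.3% of members, 5.61% of distal regions and 9.29% of all starts, and at least 3 in 6.34%, 1.23% and 2.13%. The ETS motif CCGGAAGT was in 9.91% of members, against 1.82% of distal regions and 4.46% of all starts. The NRF1 motif GCGCATGCG was in 4.64%, 0.711% and 1.82%, and the YY1 motif AAGATGGCG in 4.06%, 0.423% and 2.16%. The CREB and ATF motif TGACGTCA was in 4.24%, 1.14% and 1.95%, the E2F motif GGCGGGAA, which can share bases with a GC box, in 4.77%, 0.914% and 2.87%, and the E-box CACGTG in 11.7%, 7.82% and 7.09%. The ZNF143 and THAP11 motif ACTACAATT was in 0.901% of members, 0.110% of distal regions and 0.348% of all starts.

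The other motifs, apart from the Smad3 and PAR bZIP palindromes, were rarer in members than in the distal regions open in all 4 lists. The AP-1 motif TGANTCA was in 5.53% of members and 21.6% of distal regions, with 5.88% of all starts. The RUNX motif TGTGGTTT was in 1.38% of members, 7.09% of distal regions and 1.38% of all starts. The GATA motif AGATAA was in 4.68%, 12.3% and 8.21%, the TCF7 and LEF1 motif CTTTGAT in 2.21%, 6.49% and 2.72%, and the STAT motif TTCNNNGAA in 6.62%, 11.5% and 7.03%. The TATA box was in 4.27% of members, 9.77% of distal regions, 9.16% of all starts and 17.2% of promoters with no DHS. The CTCF core AGGGGGCGC, which can share bases with a GC box, was in 2.72% of members, 3.04% of distal regions and 1.45% of all starts. The NF-kB motif GGGACTTTC was in 0.415%, 0.905% and 0.394%, the Smad3 palindrome GTCTAGAC in 0.233%, 0.228% and 0.172%, and the PAR bZIP palindrome TTACGTAA in 0.172%, 0.102% and 0.135%.

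Within the members, motif content changed with rank. The members were split by mean rank into 10 groups of 988. From the weakest group to the strongest, the share with a CCAAT box went from 23.8% to 58.4%, and the share with at least 2 from 4.55% to 30.9%. The ETS motif went from 2.73% to 14.7%, NRF1 from 1.21% to 7.29% and the GC box from 55.7% to 73.6%, whereas AP-1 went from 9.21% to 4.25% and the TATA box from 4.66% to 2.33%. The plot of motif share by rank shows that the steps were not all in 1 direction, since the GC box was most frequent in group 9, at 77%, and AP-1 least in groups 7 and 8, at 3.14% each. GC content hardly differed between the weakest and the strongest group, with medians of 61.7% and 62.0%, although it was 59.7% in members with 3 or more CCAAT boxes and 63.7% in those without. The ratio of observed to expected CpG rose from 0.681 to 0.854, and the width of the regions from 448 to 662 bp. The CCAAT box written backwards, TAACC, chosen after the values were seen, was in 22.2% of the weakest and 21.7% of the strongest group. The GC box written backwards, GGCGGG, rose from 54.3% to 73.7%, much as the GC box did, so the rise of the GC box is not told apart from that of GC-rich letters. Counted the other way, members without a CCAAT box (5872) had a median mean percentile of 75.2, those with 1 (2397) 81.6, those with 2 (985) 87.5 and those with 3 or more (626) 91.7. The order held in each list, for example in KO cytokine with medians of 71.3, 78.1, 84.6 and 89.6. Rank by fold enrichment is a readout of the same libraries that chose the members, and whether a CCAAT box itself opens these promoters was not tested.

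**Figure D2:**
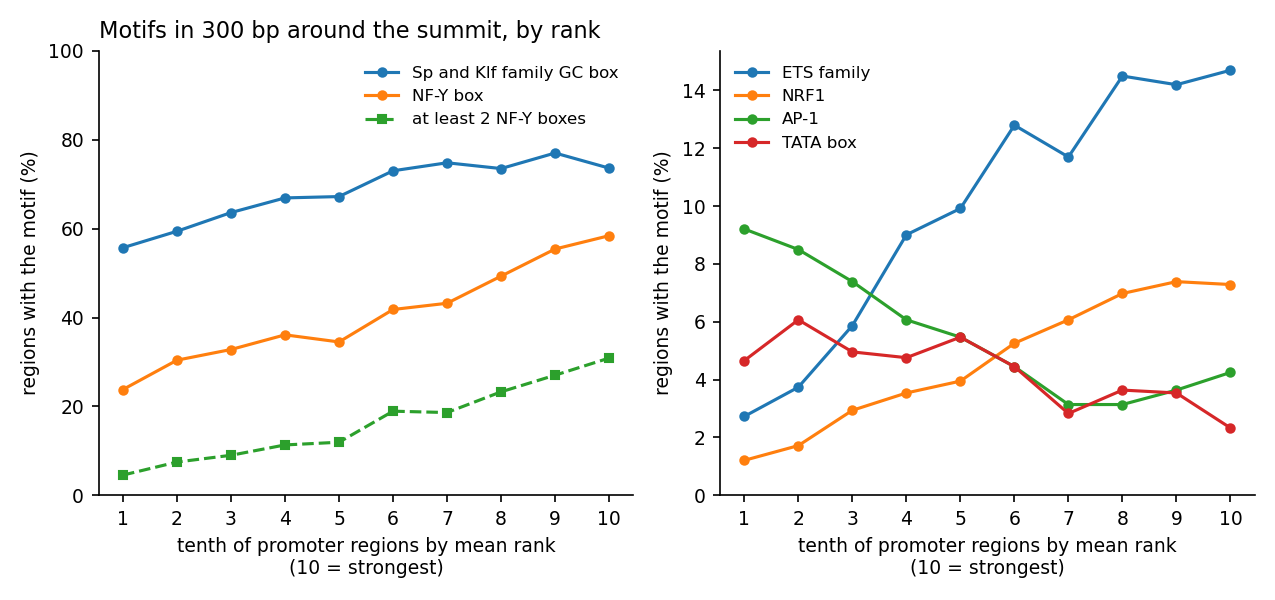
Share of promoter regions in all 4 lists (in percent) with each motif in 300 bp around the summit, by group of mean rank (10 is the strongest, 988 regions per group). The NF-Y box is the CCAAT box, which rises from 23.8% to 58.4%, while AP-1 falls from 9.21% to 4.25%.

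Motif matches gathered near the start, most of them over broad stretches. Among the 8627 members that contained the start, CCAAT matches were most frequent between 80 and 61 bp before it, with 8.10 matches per 100 starts, and GC boxes between 60 and 41 bp before it, with 19.6, though the last 20 bp before the start gave nearly as many, 19.4. The TATA box had its peak between 40 and 21 bp before the start, at 0.788 per 100 starts. NRF1 matches peaked in the last 20 bp before the start, with 1.15 matches per 100 starts, and ETS matches were as frequent there as just after the start, with 2.11 on each side. The CCAAT box, the GC box, the TATA box and the NRF1 motif were thus most frequent upstream, and only the TATA box in a narrow stretch, as the plot of motif positions shows. In the Maf sequence above the TATA box was centred 66 bp before the annotated start, and in that of Tnf 26 bp before it.

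**Figure D3:**
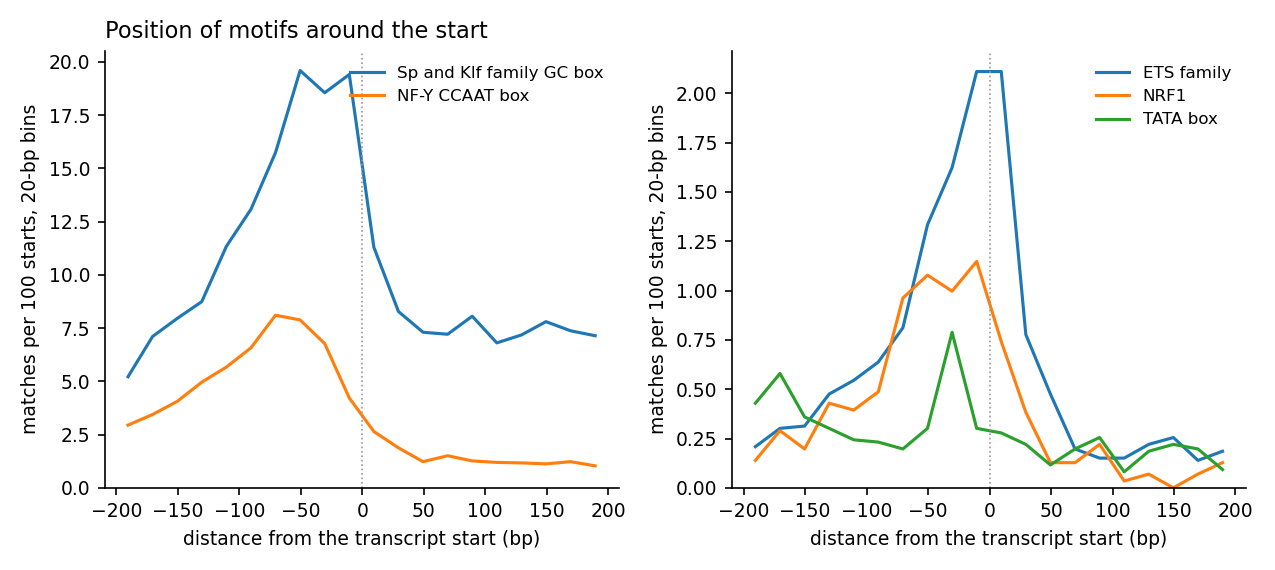
Matches per 100 starts of 5 motifs by distance from the transcript start (in bp, negative is upstream), over the 8627 promoter regions in all 4 lists that contain the start. Left, GC box and CCAAT box; right, ETS, NRF1 and TATA box motifs, with the TATA box peaking at 0.788 per 100 starts.

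Some members had, within 1000 bp of their edges, the starts of a pair of genes read away from each other. Such divergent pairs were found at 1060 members (10.7%), against 3.68% of promoter regions in 1 to 3 lists. Their share was 4.66% in the weakest of the 10 rank groups, 12% in group 5 and 16.3% in the strongest. The region itself did not have to lie between the starts of the pair. The span searched grows with the width of the region, whose median was 448 bp in the weakest group and 662 bp in the strongest. It was 612 bp in members and 305 bp in promoter regions of 1 to 3 lists. How much of these differences in share follows from width was not tested.

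Openness in all 4 lists went with transcription of the gene, a measure the rule did not use. The members lay at 10059 protein-coding genes, of which 9229 were matched by symbol to the RPKM table. For the 940 genes with several member regions, here and below, the region of highest mean percentile is given. Their median level was 9.57 RPKM, against 0.400 RPKM for 1349 genes with a promoter region in 1 to 3 lists and 0 RPKM for 8603 genes with none. The share of genes at 1 RPKM or more was 84.1%, 38.8% and 5.63% in these classes. Within the middle class the share was 26.9% with 1 list, 38.1% with 2 and 50.9% with 3. In single columns the share among member genes lay between 83.3% and 85.4% over all 24, so no library stood apart. Read the other way, 88.5% of the 8771 genes at 1 RPKM or more had a member promoter, and so did 95.6% of the 1046 genes at 100 RPKM or more. Genes are not independent replicates, and no test was made across them.

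Among member genes, the rank of the promoter said little about the level. Spearman's correlation across genes between mean percentile and median RPKM was 0.172 (n = 9229), and 0.0924 among the 7764 member genes at 1 RPKM or more. In 5 equal groups of genes from the weakest promoters to the strongest, the median was 4.43, 8.25, 11.6, 11.9 and 12.7 RPKM, a rise that flattened after group 3. The plot of gene levels shows both patterns. Whether a gene had a member promoter separated levels far more than rank did among the members. This does not extend to promoters open in 1 to 3 lists, whose genes had a median of only 0.400 RPKM.

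**Figure D4:**
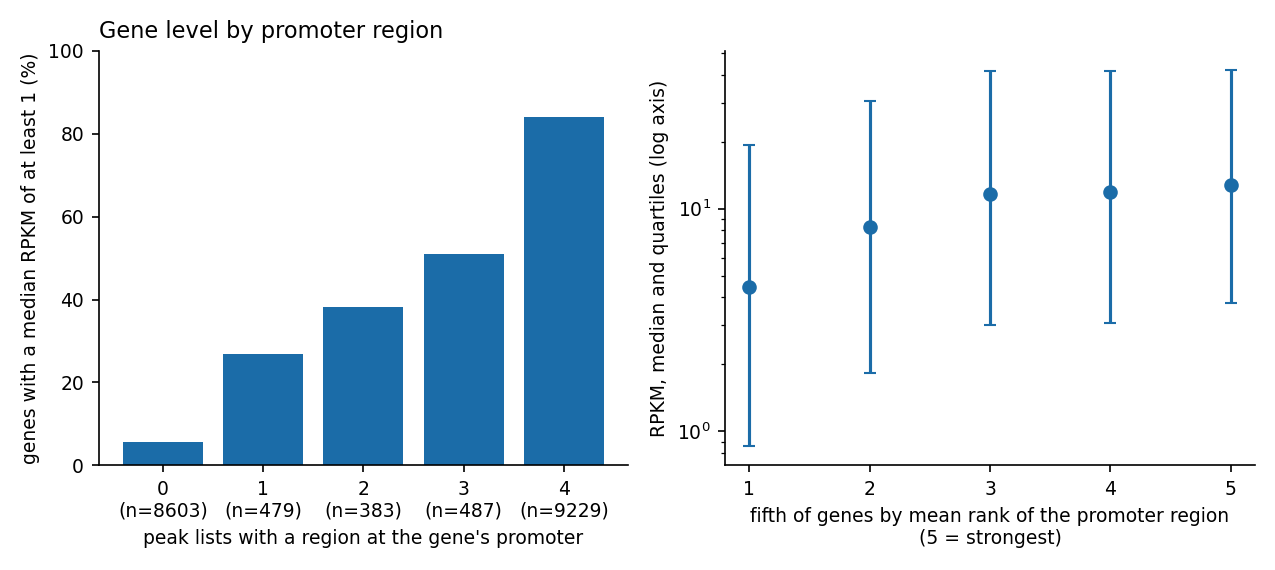
Left, share of genes (in percent) with a median of at least 1 RPKM by the number of peak lists with a region at their promoter, rising from 5.63% with none to 84.1% with 4. Right, RPKM (log axis, median and quartiles) of the 9229 genes with a promoter region in all 4 lists, in 5 groups of the region's mean rank, with medians from 4.43 to 12.7.

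The 10 member genes of highest level were Ppia, Actb, Rpl13, Eef1a1, Rplp0, Rps2, Rpl32, Rps29, Hspa8 and Rplp1, all genes of the ribosome, the cytoskeleton or protein folding and translation. Ppia, for a cyclophilin, had 6756 RPKM at a mean percentile of 77.8. Actb, for actin, had 5933 RPKM at a mean percentile of only 22.9, with 31.8, 30.6, 29.0 and 0.300 in the 4 lists. At the same time 197 member genes (2.13%) were listed with a median of 0 RPKM. Among those of highest rank were Dnaic1, Ndufs5, Gm10373, Kpna7, Dynlrb2, 5830454E08Rik, Srrm3, Pla2g4b and Olfr433, with mean percentiles from 86.4 to 98.5. Dnaic1 is a gene of motile cilia, which T cells lack. Ndufs5 encodes a subunit of the respiratory chain, so a value of 0 in this table is a listing and not proof of a silent gene.

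A member promoter was found at 9229 of all 19181 protein-coding genes in the table, and at nearly all genes in families of basic cell functions. A region in all 4 lists was found at 78 of 81 genes of cytosolic ribosomal proteins, 41 of 43 of proteasome subunits, 79 of 84 of the respiratory chain and ATP synthase, and 72 of 73 of mitochondrial ribosomal proteins. The same held for 9 of 9 chaperonin subunits, 33 of 34 splicing factors, 48 of 53 translation initiation factors and 33 of 34 tRNA synthetases. The median mean percentile of the members in these 8 lists lay between 84.1 for splicing factors and 91.6 for chaperonin subunits. These families were alike in rank but far apart in level, from a median over member genes of 51.7 RPKM for tRNA synthetases to 1748 RPKM for cytosolic ribosomal proteins. Genes named Zfp, which mostly encode zinc finger repressors, had a member promoter in 234 of 349 cases, at a median mean percentile of 83.2 but a median level of 2.04 RPKM. Replication-dependent histones, whose genes are read in S phase, had one in 49 of 64 cases, at a lower percentile of 66.5, and 85.7% of these regions held a CCAAT box. Families of other tissues were almost closed, with members at 2 of 1075 olfactory receptors, 0 of 299 vomeronasal receptors and 0 of 50 keratins. Solute carriers had 151 of 351 and interferon-induced GTPases and antiviral genes 24 of 40, shares nearer to that of all genes.

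**Figure D5:**
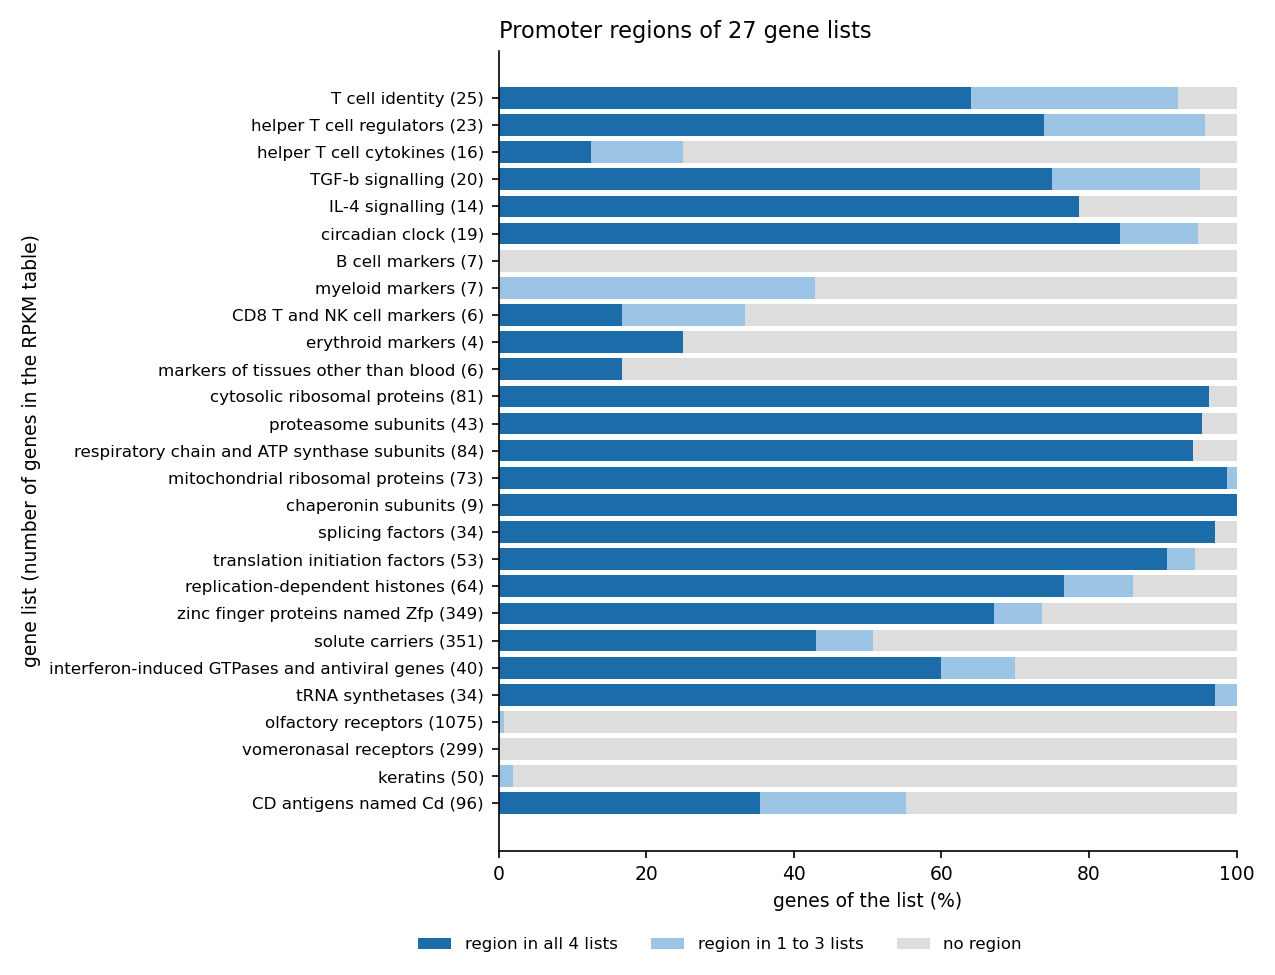
Share of the genes of each of 27 lists (in percent) whose promoter had a region in all 4 lists, in 1 to 3 lists or in none, with the number of genes in the RPKM table in parentheses. Lists of basic cell functions reach 90.6% or more, whereas 12.5% of helper T cell cytokine genes are members.

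Genes of T cell identity were all transcribed, but fewer had a member promoter. Of 25 such genes, all at 1 RPKM or more, 16 had a member promoter, 7 had a region in 1 to 3 lists and 2 had none. The median mean percentile of the 16 was 55.6, below that of the basic families. Fyn, for a Src kinase of the T cell receptor, ranked highest at a mean of 84.6, followed by Cd28, the costimulatory receptor, at 78.9 and Bcl11b, a factor of T lineage commitment, at 74.7. The CD3 chain Cd3g reached 68.1 and Cd3e 26.0, whereas Cd3d, at 229.5 RPKM, had a region in WT control alone, at a percentile of 0.150. Ptprc, which encodes CD45, had 160.3 RPKM and a region in WT control alone, at 0.968. Tcf7 had 60.3 RPKM and a region in WT cytokine alone, at 0.527. Cd4 had 95.5 RPKM and no promoter region, the nearest region being 2634 bp from a start, and Cd2 had 100.5 RPKM with the nearest at 1210 bp. High transcription of T cell genes could thus come without a promoter region in all 4 lists.

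Regulators of helper T cell fate had a member promoter in 17 of 23 cases, with a median mean percentile of 71.1. Etv5, an ETS factor gene, ranked highest, with 97.96 in WT control, 95.2 in WT cytokine, 96.0 in KO control and 97.2 in KO cytokine, although its level was 1.12 RPKM. Stat3, which carries signals of cytokine receptors, had 92.9, 93.7, 96.0 and 87.3 in the same order at 56.2 RPKM. E2f8, an atypical E2F factor gene, had a mean of 83.9, Maf 82.6 and Dbp, a clock-controlled bZIP factor gene, 82.5. Prdm1 and Rora had member promoters with WT medians of 0.262 and 0.447 RPKM and KO medians of 0.142 and 0.143 RPKM, so open promoters also included genes barely transcribed here. Maf had a median of 1.16 RPKM in WT and 0.284 RPKM in KO. Bcl6, a repressor of other helper fates, was a member at a mean percentile of 2.70. Foxp3, the regulatory T cell factor, had no promoter region, at a median of 18.8 RPKM in WT and 1.47 RPKM in KO, and Nfil3 had a region in WT control alone.

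Cytokine genes seldom had such a promoter. Of 16 helper T cell cytokine genes, Tnf and Lta had a member promoter, Il2 and Csf2 a region in WT control alone, and 12 had none. Tnf had percentiles of 32.8, 12.9, 48.6 and 22.2 in WT control, WT cytokine, KO control and KO cytokine, and Lta 0.832, 24.9, 8.36 and 0.943. Il9, the product the cultures were made for, had 8.15 to 45.9 RPKM in the 12 WT columns (median 25.5) and 0.250 to 2.72 RPKM in the 12 KO columns (median 0.914), without overlap, and its nearest region lay 5041 bp from the start and was open in all 4 lists. Ifng had a median of 45.6 RPKM in WT and 19.2 RPKM in KO, with its nearest region at 1952 bp.

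Most genes of the TGF-β pathway had member promoters, 15 of 20, with a median mean percentile of 64.5. Of the receptors, Tgfbr1 had percentiles of 85.2 in WT control, 81.8 in WT cytokine, 86.9 in KO control and 71.4 in KO cytokine, and Tgfbr2 had 21.04, 31.9, 35.3 and 36.6. The Tgfbr1 promoter was therefore open in the KO lists too. Of the signal carriers, Smad4 had a mean percentile of 89.3 and Smad2 66.9, while Smad3 had a region in every list but KO control. Of the inhibitors, Ski had 81.2, Skil 64.5 and Smad6 71.6, the latter at a level of 0.0313 RPKM, and Smad7 lacked a region in KO cytokine. Another member region of Smad6 had percentiles of 11.7, 57.9, 20.7 and 11.05 in the 4 lists. Pmepa1, an inhibitor and target of the pathway, had 37.0, 41.8 and 44.8 in the first 3 lists and 2.05 in KO cytokine. Tgfb1, the ligand gene, was a member near the bottom, at a mean of 3.30.

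In the IL-4 pathway 11 of 14 genes had member promoters, with a median mean percentile of 60.1. Socs5 at 89.4 and Irs2 at 80.9 ranked highest, followed by the kinase gene Jak1 at 79.9. The receptor genes Il2rg and Il4ra had means of 62.4 and 46.1, and Stat6, which carries the signal, 56.3. The inhibitor gene Socs1 had 22.3, with 3.69 in KO cytokine. Il13ra1, Irs1 and Tyk2 had no promoter region, and Tyk2 still had 9.88 RPKM. Of 19 circadian clock genes 16 had member promoters, at a median mean percentile of 75.7, although the median level of these 16 was 1.95 RPKM.

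The planned RNA comparisons used limma on all genes with a mean of at least 1 RPKM, with calls where the fold change was over 1.5 at an adjusted p under 0.01. By the read counts the WT columns of a heading are not replicates of that culture, so the counts of this paragraph are given for completeness and no difference is read from them. For TGF-β + IL-4 against control, as headed, limma called 0 of 7801 member genes in WT and 0% of all 9780 genes, with 40 and 61 at an unadjusted p under 0.05. In KO it called 0 of 7732 member genes and 0% of all 9573, with 736 and 887 at an unadjusted p under 0.05. For KO against WT under cytokine it called 0 of 7794 member genes and 0% of all 9732, with 1293 and 1821 at an unadjusted p under 0.05. Without replicate 2 the limma counts of member genes became 1 of 7814 for the cytokine contrast in WT (3 of all 9795 genes) and 32 of 7808 for KO against WT (66 of all 9753). Under control it called 0 genes higher in KO (0%) and 7 lower (0.0724% of 9672), 5 of them members, with 1857 of 7762 member genes and 2439 genes in all at an unadjusted p under 0.05, and without replicate 1, 2 or 3 it called 0. With the 4 columns headed with the same mouse averaged, it called 62 member genes higher in KO and 190 lower, where the background was 1.2% and 3.98% of all 9726 genes. Such averages mix mice, so their spread is not that between animals.

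The 5 members called under control were H2-Aa, H2-Ab1, Cd74, Wasl and Lgals3bp. The 3 WT control columns hold 3 cultures of 1 WT mouse by the read counts, so the ranges over all columns of a genotype are given instead. H2-Aa, a gene of an MHC class II chain, had 16.1 to 62.1 RPKM in the 12 WT columns and 6.17 to 21.7 RPKM in the 12 KO columns. H2-Ab1, for the partner chain, had 27.5 to 86.3 RPKM in WT and 8.41 to 33.2 RPKM in KO, and Cd74, for the invariant chain, 93.5 to 253.8 and 52.5 to 130.9 RPKM. The KO medians of all 3 were lower, with overlap. The summed B cell markers were lower in KO too, with medians of 16.2 RPKM in WT and 11.9 RPKM in KO, and so were the myeloid markers, with 8.38 and 5.25 RPKM. Cd79b, the most abundant B cell marker, hardly differed, with 7.05 RPKM in WT and 7.02 RPKM in KO, whereas the medians of H2-Aa were 26.7 and 9.02 RPKM and those of H2-Ab1 39.8 and 13.3 RPKM. Fewer cells of a type and less RNA per cell are not told apart for these genes. Wasl (1.91 to 9.38 RPKM in WT, 1.84 to 7.38 in KO) and Lgals3bp (38.5 to 45.3 and 20.7 to 39.9 RPKM) overlapped as well.

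Ranges over the 12 columns of each genotype do not depend on headings within a genotype, and a count of genes without overlap was added after the data were seen. The columns are 4 cultures of each of 3 mice, so no test was made on them, and the genotype of the KO columns rests on their headings. Of 9229 member genes in the table, 7795 passed the filter on low values. All 12 KO columns lay above all 12 WT columns for 162 of these (2.08%), where the background was 2.05% of all 9726 genes, and below them for 93 (1.19%), where the background was 1.61%. Genes with a promoter region in 1 to 3 lists gave 17 of 544 above (3.12%) and 29 below (5.33%), and genes with none 6 of 516 above (1.16%) and 27 below (5.23%). The share of members above was thus close to the background. Whether the share below differs between the classes was not tested.

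The genes named next were picked by the planned rule, the largest log2 difference of genotype means among members called by limma. The calls only pick them, and what is read are the differences and ranges, which do not depend on headings within a genotype. Ccr8, for a chemokine receptor of helper and regulatory T cells, had between 50.9 and 381 RPKM in the 12 WT columns (median 250.5) and between 6.14 and 42.6 RPKM in the 12 KO columns (median 23.4). The ranges did not overlap, at a log2 difference of −3.12. Foxp3, which marks regulatory T cells, was lower in KO as well, with 1.85 to 73.4 RPKM in WT and 0.542 to 4.76 RPKM in KO, so the number of such cells and the RNA of each are not told apart for Ccr8. Furin, for a protease that processes the TGF-β precursor, had 35.2 to 84.7 RPKM in WT (median 56.6) and 9.06 to 18.9 RPKM in KO (median 13.7), again without overlap, at −1.91. Lta had 73.6 to 337.6 RPKM in WT (median 173.8) and 22.98 to 81.7 RPKM in KO (median 47.7), with ranges that overlapped. The others among the 10 largest were Vim, Ifi27l2a, Scd2, Dusp4, Fbxo2, Skil and Pmepa1, with log2 differences between −1.58 and −2.12. In the TGF-β pathway Skil (3.92 to 12.2 RPKM in WT, 1.55 to 2.34 in KO) and Pmepa1 (2.25 to 7.57 and 0.541 to 0.983 RPKM) did not overlap between genotypes. Ski (3.13 to 12.5 and 1.92 to 3.39 RPKM) and Tgfb1 (2.75 to 9.94 and 1.68 to 4.18 RPKM) overlapped, as Tgfbr1 did.

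Of the member genes higher in KO, Trat1, for an adaptor of the T cell receptor, had the largest difference, with 3.78 to 57.0 RPKM in WT (median 17.4) and 26.5 to 153.1 RPKM in KO (median 65.5), ranges that overlapped. Cst7, for a protease inhibitor of lymphocytes, had 21.9 to 119.1 RPKM in WT and 107.8 to 169.5 RPKM in KO, ranges that overlapped at their ends. Tnfsf11, which encodes the cytokine RANKL, had 7.82 to 22.3 RPKM in WT and 25.2 to 43.3 RPKM in KO, without overlap. Slamf6, a receptor of the SLAM family, had 8.55 to 22.6 RPKM in WT and 29.4 to 40.9 RPKM in KO, without overlap, while its promoter ranked at a mean of only 2.51. Arc, Plk2, Ms4a4c, Serpinb9, Grap and Ms4a4b complete the 10 largest, with log2 differences between 1.16 and 1.33.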

How the data were processed

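The authors mapped the DNase-seq reads of mouse CD4+ T cells with Bowtie2 to mm9, filtered them and called peaks with MACS2 in each library (versions not given). The deposited lists give a fold enrichment ratio, the −log10 of the p-value and the −log10 of the q-value per peak. The authors deposited gene levels as RPKM. Members and gene lists were chosen with earlier results of these data known. Regions were merged and ranked in Python 3.11.15 (numpy 2.4.6, pandas 2.3.3, scipy 1.17.1), sequence was read with pysam 0.24.0, and figures were drawn with matplotlib 3.10.9. RNA comparisons used limma 3.58.1 in R 4.3.3 with a trend on log2(RPKM + 1), tried on simulated data. RPKM genes were matched to GENCODE vM1 by symbol, 19181 of 24089.

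Named genes are the 10 members of highest rank, the 10 with the widest gap between lists, the genes of the T cell, helper, TGF-β and IL-4 lists, the 10 called member genes of largest change in each direction, and the 10 of highest and lowest level; the 10 of lowest rank and single genes of other lists were named after their values were seen. The comparisons were unpaired, as planned. Deviations of same-numbered control and cytokine columns had correlations of −0.22, −0.74 and −0.15 in WT and 0.48, −0.42 and 0.38 in KO, but the read counts contradict the WT numbers, so these values do not show whether the samples pair.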

Additional observations from a re-analysis of the deposited data

How the results depend on the processing

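The count of 9880 promoter DHSs lay between 7938 (summits within 100 bp) and 9876 (without chromosomes M and Y, chosen after seeing the data) under all 7 alternatives. The median mean percentile was 79.9, and 81.0 with ranks by −log10 p, chosen after seeing the data. The 1997 members with a shift in any contrast became 2128 with ranks among regions present in all 4 lists and 1874 with ranks by −log10 p. With ranks among regions present in all 4 lists, members higher and lower were 513 and 274 for cytokines against control in WT, 352 and 402 for the same in KO, 523 and 254 for KO against WT under control, and 400 and 444 under cytokine. With ranks by −log10 p, members higher in the WT cytokine contrast fell to 102. The shortened list of ranked regions changes every percentile by construction.

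The median of member genes was 9.05 RPKM for genes alone at their region, and between 9.46 and 9.59 over the 12 columns of the 4 conditions, the 12 KO columns or the 12 WT columns, the last 2 chosen after seeing the data. The share of members with a CCAAT box was 24.5% in 100 bp, and all 18 other motifs were less frequent there too, as they must be in a window inside the longer one.

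Member genes called by limma under control (5) became 0 without the filter on low values and 8 with scaled columns, and lay between 0 and 0 when a replicate was left out. Under cytokine they became 2 in moderation without a trend and ranged from 0 to 32 when a replicate was left out, the 32 without replicate 2. The cytokine response in WT ranged from 0 to 1, and the replicate block, a paired fit, gave 0 in WT and 0 in KO. The 252 members called per mouse ranged from 245 to 265 when a replicate was left out and from 187 to 351 under the other alternatives. Member genes whose 12 columns per genotype did not overlap, chosen after seeing the data, were 255, with 162 higher and 93 lower in KO. The balance was thus the reverse of that among the 252 called members, with 62 higher and 190 lower. Where a value moved, the cause was not tested.

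Limits: each DNase-seq condition is 1 library of unknown depth, so neither presence nor rank has an error. A region absent from a list can lie just under the threshold of the peak caller. Motif matches are letters. RPKM headings among WT columns contradict the read counts, and the KO headings could not be checked.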

Other observations

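The genes Ddx3y, Eif2s3y, Kdm5d and Uty of the Y chromosome had at most 0.0326 RPKM in any of the 24 RNA-seq columns, and Xist had between 0.946 and 2.44 RPKM in all of them. The 4 DNase-seq lists held 30 (WT control), 37 (WT cytokine), 34 (KO control) and 29 (KO cytokine) regions of the Y chromosome, of which the promoter of Ddx3y alone was a member. The labels give no sex for any sample.

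Among genes at 100 RPKM or more, 19 of 1046 had no promoter region in any list. The highest were the histone genes Hist1h2af at 1040.4 RPKM and Hist1h2ab at 783 RPKM, whose nearest regions lay 1166 bp and 1016 bp from a start, just past the distance threshold.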
